A study of Mus musculus with 26 samples.

Results

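Of 19638 genes listed in at least 1 of 26 mouse liver libraries, 10 were followed across all 8 sample groups. They are 7 genes that mark liver sinusoidal endothelium (Stab2, Lyve1, Clec4g, Oit3, Dnase1l3, Flt4 and Gata4) and 3 secreted signals of the Wnt pathway known from the same cells (Wnt2, Wnt9b and Rspo3), chosen by name as genes of 1 cell type and its signals. All 10 were detected: 8 were listed in every library, Wnt9b in 22 and Wnt2 in 21.

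The study compared livers of C57BL/6 mice by RNA sequencing of whole tissue. The younger animals were 2 to 3 months old and gave 3 WT libraries and the Alb-Cre:Hdac3-/- libraries sampled after sPH, which the labels spell out as successive PH: 3 libraries on day 0 (called 0d), 4 on day 7 (7d), 4 on day 21 (21d) and 3 on day 50 (50d). The older groups were 3 tumors and 3 samples of adjacent non-tumor tissue from Alb-Cre:Hdac3-/- mice at 10 months, and 3 liver tumors of Fah-/- recipient mice at 12 months. It is not stated whether WT mice underwent sPH, which cells the recipients were given, or whether a tumor and an adjacent sample came from 1 animal. The albumin promoter that drives Cre is active in hepatocytes, so the deletion is not aimed at endothelium. The labels also do not say that replicates were separate animals, so p-values measure only the spread between these samples, part of which may be technical.

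Liver sinusoids are lined by fenestrated endothelial cells without a continuous basement membrane, which clear macromolecules from blood through scavenger and lectin receptors. Endothelial cells near the central vein also secrete Wnt2, Wnt9b and Rspo3. Wnt ligands bind Frizzled and Lrp receptors on hepatocytes, R-spondins bind Lgr receptors and prolong the signal, and pericentral hepatocytes respond with a set of target genes. Endothelium that changes from the sinusoidal to a continuous capillary form is known to lose scavenger receptors and Gata4 and to gain basement membrane genes.

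The genes lie in build GRCm38 with Stab2 at chr10:86841194-87008038, Lyve1 at chr7:110850607-110862953, Clec4g at chr8:3707066-3720695, Oit3 at chr10:59422960-59441779, Dnase1l3 at chr14:7965187-7994760, Flt4 at chr11:49609679-49652739, Gata4 at chr14:63198914-63271712, Wnt2 at chr6:17985474-18032772, Wnt9b at chr11:103727362-103775272 and Rspo3 at chr10:29453106-29535867. Promoters of 5 of the 10 genes were in the RefSeq table of build GRCm38.p6 (Clec4g, Stab2, Flt4, Wnt2 and Wnt9b). Stretches before the start of Clec4g, Wnt2 and Wnt9b are shown because all 3 had low levels in tumor tissue. They lie on the minus strand, Clec4g at chr8:3720696-3720901, Wnt2 at chr6:18030586-18030695 and Wnt9b at chr11:103749822-103750071. Bases from the first annotated exon onward were left out. The start is that of the RefSeq transcript, and the stretches of Wnt2 and Wnt9b lie inside the longer gene spans given above. Capitals mark matches to the ETS letters AGGAAG on either strand.
Clec4g: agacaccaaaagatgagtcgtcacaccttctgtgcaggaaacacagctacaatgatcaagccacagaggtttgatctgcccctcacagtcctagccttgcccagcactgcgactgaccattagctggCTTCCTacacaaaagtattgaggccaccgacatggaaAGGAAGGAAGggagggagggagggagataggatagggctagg
Wnt2: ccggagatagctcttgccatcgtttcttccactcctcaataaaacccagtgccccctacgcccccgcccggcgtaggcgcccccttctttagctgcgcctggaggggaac
Wnt9b: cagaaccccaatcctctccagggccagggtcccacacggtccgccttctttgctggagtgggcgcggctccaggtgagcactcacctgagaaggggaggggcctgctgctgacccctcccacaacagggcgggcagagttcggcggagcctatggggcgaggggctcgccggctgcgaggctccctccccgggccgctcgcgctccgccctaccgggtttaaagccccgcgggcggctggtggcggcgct
Over the 250 bases before the start, Clec4g held 3 matches to AGGAAG, of which 2 overlap, Stab2 held 1, and Flt4, Wnt2 and Wnt9b held 0. These letters occurred in 29.5% of 32851 promoters of the same length. The GATA letters AGATAA and the TCF/LEF letters CTTTGA, searched on both strands, had 0 matches in all 5 windows and occurred in 9.99% and 13.8% of the promoters. A match or its absence describes these letters only.

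Library totals ran from 8602526 to 11094627 counts. Levels are given as CPM, counts scaled to library size, with edgeR's TMM factors over all 26 libraries. Counts ran from 97 to 853 for Stab2 and from 85 to 3268 for Flt4, but from 0 to 18 for Wnt2 and from 0 to 21 for Wnt9b, whose values carry large counting error. Hdac3, the targeted gene, had 33.9 CPM ± 2.51 (SD, n = 3) in WT and 45.7 CPM ± 3.39 (SD, n = 3) in 0d, so its whole-gene counts were not lower under the Hdac3-/- label. These counts do not separate deleted from remaining exons or hepatocytes from other cells, and do not check the genotype. Y-linked transcripts, at summed levels of 20.6 to 81.4 CPM, were present in all 7d, 21d and 50d libraries, in tumor replicate 3 and in adjacent replicate 2, and were at 0.3 CPM or less in all others. Each comparison of a later day with WT or 0d therefore cannot be told apart from this difference.

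On the length-scaled FPKM values, which allow levels of different genes to be compared, the C-type lectin Clec4g was the highest of the 10 genes in WT liver at 25.6 FPKM ± 13.0 (SD, n = 3). The secreted nuclease Dnase1l3 followed at 12.2 FPKM ± 5.33 (SD, n = 3). Oit3, Stab2, Gata4, Flt4 and Lyve1 had mean levels of 6.56, 5.39, 4.15, 3.86 and 3.39 FPKM. The 3 signals were lowest, with 1.38 FPKM ± 0.59 for Rspo3, 0.35 FPKM ± 0.12 for Wnt2 and 0.22 FPKM ± 0.09 for Wnt9b. In bulk RNA, fewer cells of a type and less RNA per cell cannot be told apart.

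**Figure D1:**
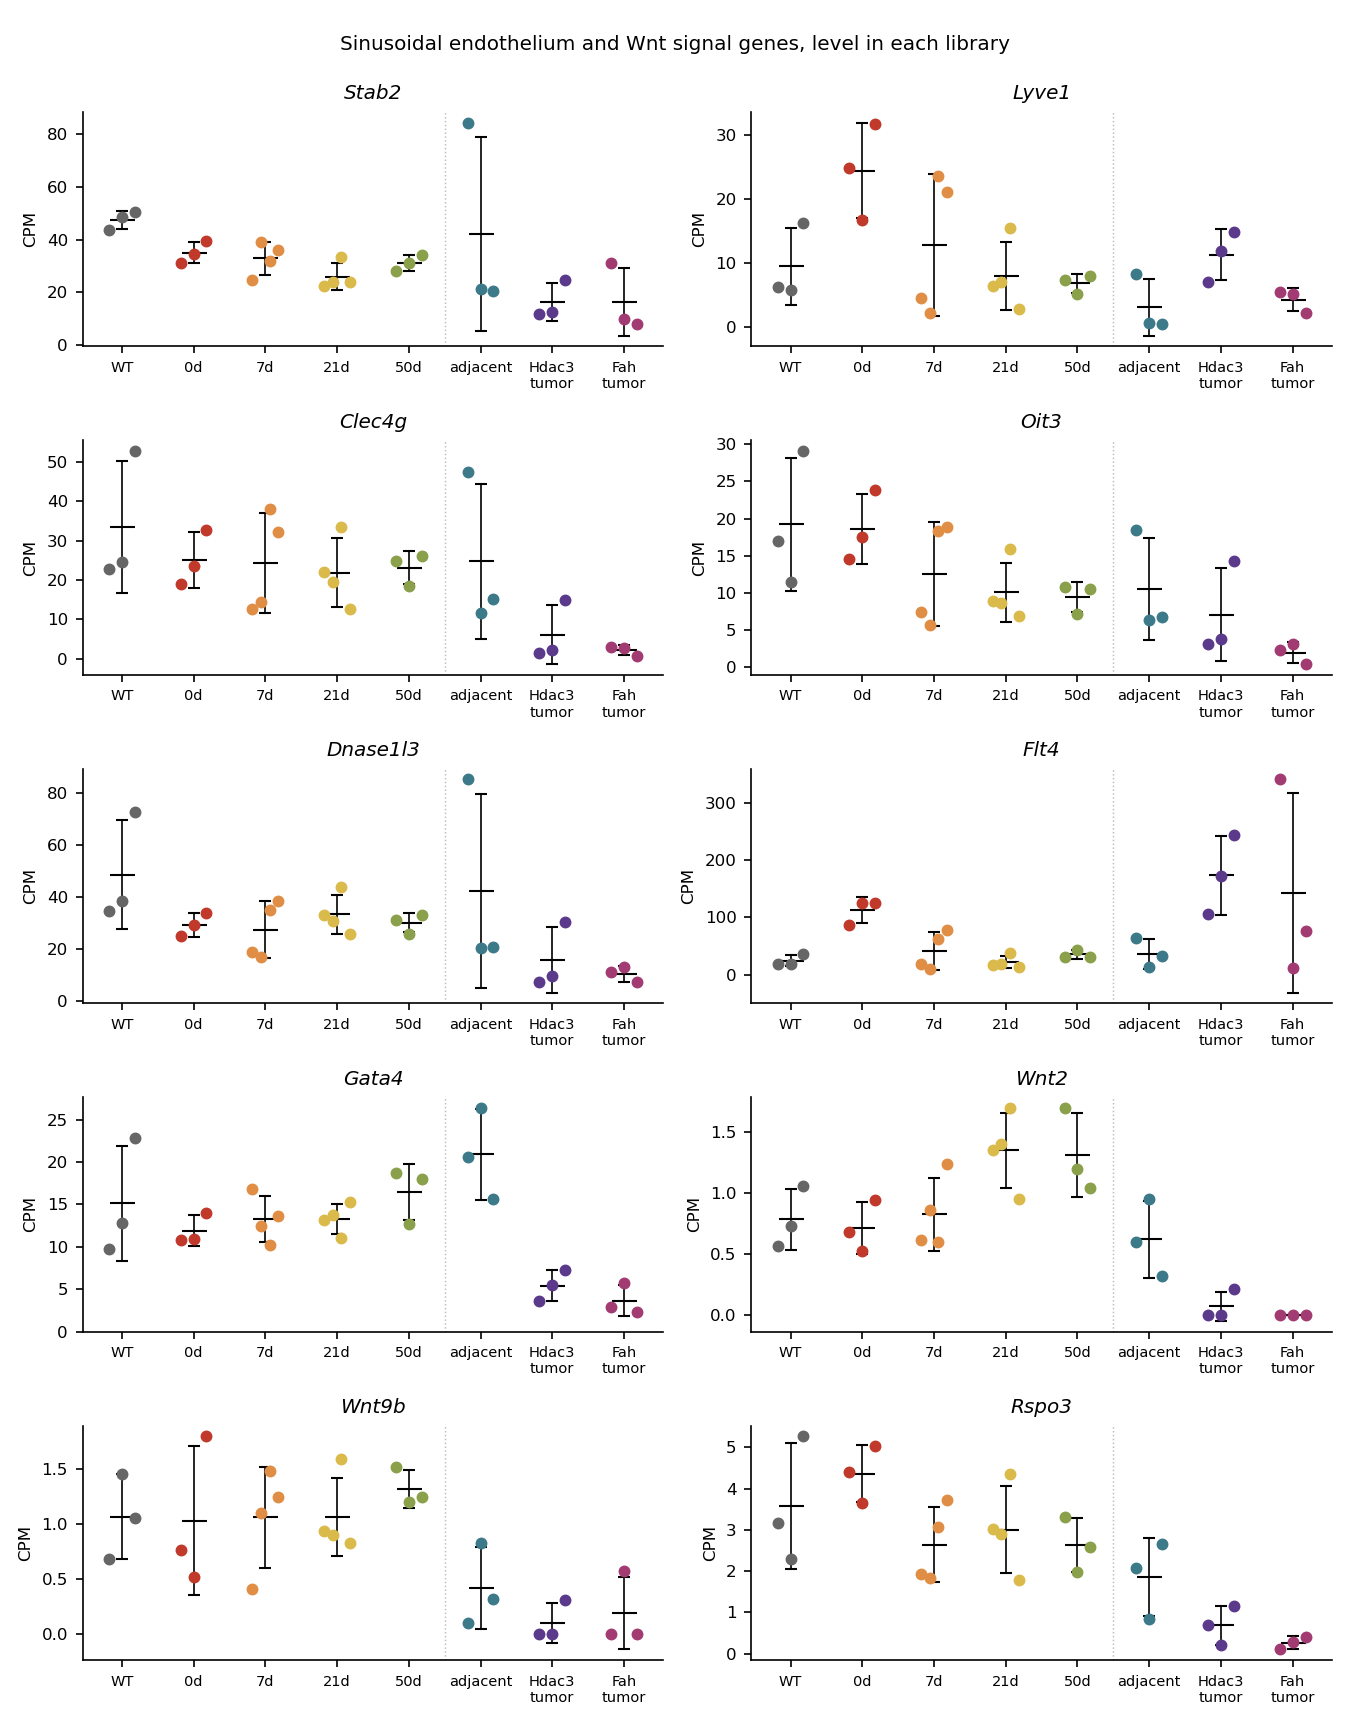
Level of each of the 10 genes in every library (points; CPM, linear axis) by group, with the group mean and SD (bars); the dotted line parts the younger from the older groups. Gata4 was lower in every Hdac3-/- tumor than in every adjacent sample. So was Wnt2, but with only 0, 0 and 2 counts against 6, 8 and 3 counts, too few for a test. Flt4 was at 86.7 to 126 CPM in 0d against 17.8 to 36.0 CPM in WT.

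Ordering the 8 groups by their median gives 70 pairs of neighbours over the 10 genes, and in 64 of these the ranges over libraries overlapped. In the other 6, WT stood above 0d in Stab2, WT above the Fah-/- recipient tumors in Lyve1, adjacent tissue above the recipient tumors in Clec4g and Dnase1l3, 0d above the Hdac3-/- tumors in Gata4, and adjacent tissue above the Hdac3-/- tumors in Wnt2. The last place in the order belonged to the recipient tumors for Stab2, Oit3, Gata4 and Rspo3, to the Hdac3-/- tumors for Clec4g and Dnase1l3, and to both, at a median of 0, for Wnt2 and Wnt9b. Flt4 broke this pattern, with its highest median in the Hdac3-/- tumors (172 CPM) and its lowest at 21d (18.6 CPM). Lyve1 had its highest median in 0d (24.9 CPM) and its lowest in adjacent tissue (0.592 CPM).

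The first comparison asks how endothelial genes of Hdac3-/- liver at 0d differed from those of WT liver. Flt4 encodes VEGF receptor 3, the receptor for Vegfc and Vegfd. It was 86.7, 126 and 126 CPM in 0d and 17.8, 19.4 and 36.0 CPM in WT. All 0d libraries were above all WT libraries. Flt4 rose by 2.21 ± 0.58 (SE) on the log2 scale (edgeR quasi-likelihood test, Benjamini-Hochberg adjusted p = 0.00798). It was the 1 gene of 10 called, where 37.3% of 13617 genes tested were called, 18.3% as higher. The call held in 11 of 11 alternatives, with adjusted p from 0.000534 to 0.0396.

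Among the scavenger receptors, Lyve1, a hyaluronan receptor shared with lymphatic endothelium, was 24.9, 16.8 and 31.8 CPM in 0d and 6.24, 5.82 and 16.4 CPM in WT. The groups did not overlap, although the lowest 0d library was close to the highest WT library, and the log2 difference of 1.37 ± 0.69 did not pass in edgeR (adjusted p = 0.127). Stab2, a scavenger receptor for hyaluronan, was 31.3, 34.4 and 39.3 CPM in 0d and 43.8, 48.4 and 50.3 CPM in WT. All WT libraries were above all 0d libraries, with a log2 difference of -0.44 ± 0.18 (edgeR adjusted p = 0.0673). Dnase1l3, which degrades DNA in blood, was 24.9, 29.2 and 34.0 CPM in 0d and 34.7, 38.6 and 72.5 CPM in WT, again without overlap (-0.72 ± 0.32, edgeR adjusted p = 0.0828). In all, 2 genes were higher and 2 lower without overlap, beside 56.7% of all genes tested. The remaining 6 genes had overlapping groups, with log2 differences from -0.41 for Clec4g to 0.29 for Rspo3, none of them called. The median of the 10 log2 differences was -0.09, beside 0.00 over all genes tested.

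Other endothelial genes of 0d liver were then set beside these. Of 15 other sinusoidal genes 4 rose, 0 fell and 11 did not pass, with a median log2 difference of 0.50. Bmp6, a secreted regulator of iron metabolism, rose by 3.29 ± 0.64 on the log2 scale (edgeR adjusted p = 0.00118), and Thbd, the thrombin receptor thrombomodulin, rose by 1.61 ± 0.39 (edgeR adjusted p = 0.00509). Ctsl, a lysosomal protease that many other cells express, rose by 2.27 ± 0.48 (edgeR adjusted p = 0.00204). Of 19 general endothelial genes 1 rose, 2 fell and 16 did not pass (median 0.36), with a summed level of 411 to 517 CPM in 0d and 511 to 722 CPM in WT. Much of this sum came from the endothelin-converting enzyme Ece1, with means of 137 CPM in 0d and 314 CPM in WT. The sum thus does not give the direction of the other genes. The junction cadherin Cdh5 rose by 0.71 ± 0.26 on the log2 scale (edgeR adjusted p = 0.0402), and the sphingosine phosphate receptor S1pr1 fell by 2.20 ± 0.42 (edgeR adjusted p = 0.000969). Of 13 tested genes of capillaries and larger vessels 10 rose, 1 fell and 2 did not pass, with a median of 1.61. They included the tip cell marker Esm1 (4.15 ± 0.71, edgeR adjusted p = 0.000475), the growth factor gene Pdgfb (2.35 ± 0.51, edgeR adjusted p = 0.00252) and the basement membrane gene Lama4 (2.64 ± 0.60, edgeR adjusted p = 0.00314). Since Lyve1 and Flt4 also mark lymphatic vessels, 6 lymphatic genes were examined, of which 3 could be tested. EdgeR called 0 of these 3, with 0 at an unadjusted p under 0.05, and their median was 0.09. Of the tested genes, Prox1 and Reln, which hepatocytes and stellate cells also express, had means of 14.5 and 42.1 CPM in WT. In 0d these were 14.6 and 44.6 CPM. Ccl21a, Mmrn1, Foxc2 and Pdpn had higher means in 0d (6.14, 2.45, 0.436 and 0.455 CPM) than in WT (1.73, 0.25, 0.108 and 0.403 CPM). The median is thus no measure of lymphatic endothelium alone, and the part of lymphatic cells in Lyve1 and Flt4 was not tested.

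The list of VEGF family genes, Gata factors and Gata cofactors had 9 tested genes, of which 2 rose and 2 fell. The Flt4 ligands Vegfc and Vegfd had means of 3.64 and 2.35 CPM in WT and 6.79 and 1.37 CPM in 0d. Gata6, a close relative of Gata4, rose by 1.01 ± 0.30 on the log2 scale (edgeR adjusted p = 0.0153), while Gata4 itself was at -0.34 ± 0.27 and not called. Zfpm1, a cofactor of Gata proteins, fell by 2.36 ± 0.42 (edgeR adjusted p = 0.00068). Vegfb, which is not among the Flt4 ligands, fell by 1.10 ± 0.31 (edgeR adjusted p = 0.0107).

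The Wnt signals stayed within the spread of the libraries while their target genes in hepatocytes were lower. Wnt2, Wnt9b and Rspo3 had log2 differences of -0.13 ± 0.42, -0.05 ± 0.50 and 0.29 ± 0.36 between 0d and WT (edgeR adjusted p = 0.828, 0.945 and 0.555). With 5 to 11 counts of Wnt2 and 6 to 21 of Wnt9b in these libraries, a change the size of these standard errors was not detectable at this depth. Of 15 pericentral Wnt targets 12 fell, 0 rose and 3 did not pass, with a median log2 difference of -2.20. The hepatocyte cytokine Lect2 fell by 3.37 ± 0.28 on the log2 scale (edgeR adjusted p = 3.16e-06), the cytochrome Cyp2e1 fell by 4.31 ± 0.67 (edgeR adjusted p = 0.000244) and Notum, an enzyme that inactivates Wnt proteins, fell by 2.28 ± 0.32 (edgeR adjusted p = 0.000143). Among 8 tested genes for other ligands and their secretion 2 rose and 2 fell: Wls, which carries Wnt proteins to the cell surface, rose by 1.76 ± 0.41 (edgeR adjusted p = 0.00372), and Porcn, which attaches their lipid, fell by 1.58 ± 0.38 (edgeR adjusted p = 0.00459). Of 12 tested receptors 0 rose and 1 fell, the R-spondin receptor Lgr5 (-1.92 ± 0.58, edgeR adjusted p = 0.0166). Of 8 tested inhibitors and feedback genes 2 rose and 2 fell; Notum, Axin2 and Lgr5 stand in both a pathway list and the target list.

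Cells other than endothelium differed in the same comparison. All 6 hepatocyte genes fell, with a summed level of 35350 to 44660 CPM in 0d and 143900 to 160200 CPM in WT, and all 6 cholangiocyte genes rose (381 to 632 CPM against 36.1 to 55.5 CPM). Of 12 stellate cell genes 4 rose, 0 fell and 8 did not pass, with a median log2 difference of 0.46. Their summed level was 548 to 639 CPM against 469 to 674 CPM. Much of it came from Ecm1, with means of 156.8 CPM in 0d and 256.1 CPM in WT, so this sum does not give the direction of the list. Of 10 Kupffer cell and macrophage genes 2 rose and 2 fell, with a summed level of 785 to 830 CPM against 373 to 833 CPM. None of these genes was at 0 in a whole group, and the part of these cells in the endothelial values was not tested.

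The later days after sPH were set against 0d, and these 3 comparisons share the 0d libraries. Flt4 was 17.8, 10.4, 61.6 and 78.7 CPM at 7d, 17.6, 19.5, 38.0 and 12.7 CPM at 21d, and 31.7, 44.0 and 30.5 CPM at 50d. Every later library was below every 0d library, and the 7d group was split, with replicates 1 and 2 low and replicates 3 and 4 high. Flt4 fell by 2.37 ± 0.53 on the log2 scale at 21d (edgeR adjusted p = 0.00397) and by 1.68 ± 0.57 at 50d (edgeR adjusted p = 0.0409), and its difference at 7d was -1.42 ± 0.52 (edgeR adjusted p = 0.0526). The 21d call held in 12 of 12 alternatives (adjusted p from 8.42e-05 to 0.0168 in edgeR and DESeq2). The 50d call held in 5 of 11 (adjusted p from 0.0136 to 0.128 in edgeR and DESeq2) and was lost without any 1 of its 6 libraries. At 7d the difference passed in 4 of 12 (adjusted p from 0.0153 to 0.135 in edgeR and DESeq2), among them the fits without 7d replicate 3 (-1.66) and without 7d replicate 4 (-1.89).

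Flt4 was thus the 1 gene of 10 called at 21d, where 31.6% of genes tested were called (14% as lower), and the 1 gene called at 50d, where 25.8% were called (11.4% as lower). At 7d edgeR called 0 of 10 genes, with 1 at an unadjusted p under 0.05 and 1 called by DESeq2, where 26.6% of genes tested were called. Without overlap with 0d, 0 genes were higher and 1 lower at 7d, beside 37.1% of all genes tested. At 21d these numbers were 1 and 2, beside 48% of all genes, and at 50d they were 1 and 4, beside 54.5%. The medians of the 10 log2 differences were -0.10, -0.32 and -0.15, beside 0.04, 0.01 and 0.01 over all genes tested.

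Lyve1, the hyaluronan receptor, was 4.48, 2.20, 23.6 and 21.2 CPM at 7d, 6.47, 7.09, 15.5 and 2.84 CPM at 21d, and 7.36, 5.18 and 7.98 CPM at 50d. Libraries of 7d fell inside and below the 0d range, and those of 21d and 50d all fell below it. The log2 differences from 0d were -0.92 ± 0.62, -1.62 ± 0.64 and -1.84 ± 0.70, none called in edgeR (adjusted p = 0.285, 0.0622 and 0.0637). Oit3, a secreted protein of sinusoidal endothelium, had differences of -0.56 ± 0.40, -0.88 ± 0.41 and -0.98 ± 0.44, none called in edgeR (adjusted p = 0.317, 0.105 and 0.112). Stab2 was 22.3, 23.8, 33.4 and 23.8 CPM at 21d, where replicate 3 alone lay inside the 0d range. Without 21d replicate 3, edgeR called 4 of 10 genes at 21d, all lower: Flt4, Stab2 (-0.59, adjusted p = 0.00988), Lyve1 (-2.16, adjusted p = 0.0215) and Oit3 (-1.19, adjusted p = 0.0379). Over the 12 alternatives the adjusted p of edgeR or DESeq2 ran to 0.199 for Stab2, 0.178 for Lyve1 and 0.314 for Oit3. Clec4g, Dnase1l3 and Gata4 had log2 differences from -0.20 to 0.47 at the 3 days, with overlapping groups and no call.

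Wnt2, a Wnt ligand of sinusoidal endothelium, had 8, 6 and 11 counts in 0d and 13, 14, 16 and 8 counts at 21d. As levels these were 0.678, 0.521 and 0.940 CPM in 0d and 1.36, 1.40, 1.70 and 0.948 CPM at 21d. Every 21d library was above every 0d library, with the lowest 21d library close to the highest 0d library. The log2 difference was 0.91 ± 0.37 (edgeR adjusted p = 0.073). At 50d, with 18, 12 and 10 counts, it was 0.86 ± 0.39 (edgeR adjusted p = 0.116), also without overlap. Wnt9b, the other ligand, had overlapping groups and log2 differences of 0.04 ± 0.47, 0.05 ± 0.47 and 0.35 ± 0.49 at 7d, 21d and 50d. Rspo3, which prolongs Wnt signals, had differences of -0.72 ± 0.34, -0.53 ± 0.34 and -0.73 ± 0.37, and none was called. It overlapped with 0d at 7d and 21d. At 50d every library was below every 0d library (1.99 to 3.305 CPM against 3.649 to 5.04 CPM).

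The pericentral Wnt targets, which were lower in 0d than in WT, were higher at each later day than in 0d. Of 15 targets 12 rose and 1 fell at 7d, 12 rose and 0 fell at 21d, and 11 rose and 1 fell at 50d, with medians of 1.69, 2.00 and 1.89 on the log2 scale. Axin2, a feedback gene of the pathway, rose by 1.40 ± 0.36, 1.56 ± 0.36 and 1.71 ± 0.38 at the 3 days (edgeR adjusted p = 0.0106, 0.00464 and 0.00433). Lgr5 rose by 1.69 ± 0.56, 2.05 ± 0.55 and 1.89 ± 0.58 (edgeR adjusted p = 0.0339, 0.0113 and 0.0252).

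The capillary and large-vessel genes went the other way. Of 13 tested 8 fell and 1 rose at 7d, 9 fell and 0 rose at 21d, and 8 fell and 1 rose at 50d, with medians of -1.48, -1.72 and -1.28. Esm1 fell by 3.37 ± 0.59 at 7d and by 3.06 ± 0.58 at 21d on the log2 scale (edgeR adjusted p = 0.00128 and 0.00149). Of 19 general endothelial genes 8 fell and 2 rose at 7d, 5 fell and 2 rose at 21d, and 4 fell and 1 rose at 50d. Of 15 other sinusoidal genes 1, 2 and 3 fell and 0 rose. Stellate cell genes moved with them: 7, 7 and 4 of 12 fell and 0 rose, and their summed level was 548 to 639 CPM in 0d, 211 to 515 CPM at 7d, 211 to 624 CPM at 21d and 279 to 317 CPM at 50d. Of the 3 lymphatic genes tested 2 fell at 7d, 1 at 21d and 1 at 50d, and 0 rose, with medians of -1.28, -1.46 and -1.29. Reln, which stellate cells also express, fell at all 3 days, and the lymphatic chemokine Ccl21a fell by 2.97 ± 1.06 at 7d (edgeR adjusted p = 0.0486). Of 6 hepatocyte genes 2, 3 and 2 rose and 0 fell, of 10 Kupffer cell genes 2 rose and 0 fell at each day, and of 6 cholangiocyte genes 2, 4 and 1 fell and 0 rose. The part of these cells in the endothelial values was not tested.

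**Figure D2:**
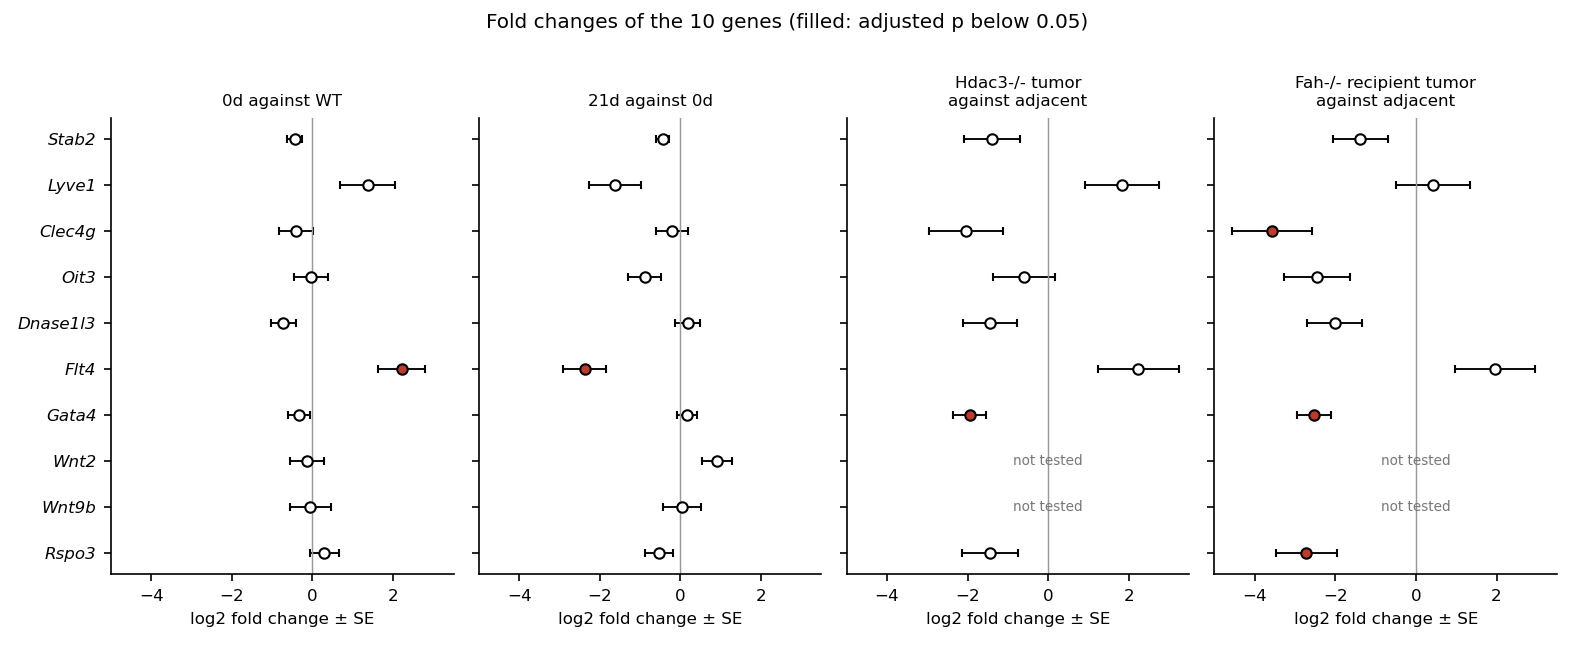
Log2 fold change of each of the 10 genes (points) with its SE (bars) in 4 comparisons; filled points had an edgeR adjusted p under 0.05, and Wnt2 and Wnt9b had too few counts for a test in the older tissues. Flt4 was at 2.21 in 0d against WT and at -2.37 in 21d against 0d, and Gata4 was at -1.95 and -2.53 in the tumors.

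Between the later days edgeR called no member. For 21d against 7d it called 0 of 10 genes (1 at an unadjusted p under 0.05, 0 by DESeq2), where 0% of genes tested were called. For 50d against 7d and for 50d against 21d it called 0 of 10 (0 at an unadjusted p under 0.05 and 0 by DESeq2 in each), where 0.441% of genes tested were called in each. Within 7d the libraries were split: Clec4g was 12.6 and 14.3 CPM in replicates 1 and 2 and 38.0 and 32.1 CPM in replicates 3 and 4, and Dnase1l3 was 19.1, 17.1, 35.1 and 38.6 CPM in the same order. Lyve1, Oit3, Flt4 and Rspo3 had the same pair of libraries high. Gata4 did not, with its highest level of 16.8 CPM in replicate 1. The same libraries were split in the opposite direction in hepatocyte genes, with summed levels of 73600, 114300, 27860 and 32610 CPM in replicates 1 to 4, and in pericentral Wnt targets, with 11340, 19080, 3096 and 4890 CPM. The part of this split in the values at 7d was not tested.

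At 50d, set against WT, Stab2 was the 1 gene of 10 called, where 11.2% of genes tested were called (4.79% as lower). It was 28.0, 31.2 and 34.1 CPM at 50d and 43.8, 48.4 and 50.3 CPM in WT, with no overlap, and fell by 0.61 ± 0.18 on the log2 scale (edgeR adjusted p = 0.0403). The call held in 3 of 11 alternatives (adjusted p from 0.016 to 0.155 in edgeR and DESeq2) and was lost without any 1 of the 6 libraries. Oit3 and Dnase1l3 were also below WT in every library, at -1.02 ± 0.44 and -0.69 ± 0.32, and did not pass in edgeR (adjusted p = 0.149 and 0.170). These 3 genes had no overlap, beside 35.3% of all genes tested. Flt4, at 0.54 ± 0.57, and the 3 Wnt signals overlapped with WT. The median of the 10 log2 differences was -0.45, beside 0.00 over all genes tested. Of 15 other sinusoidal genes 0 rose and 1 fell, the membrane trafficking gene Ehd3 (-1.33 ± 0.41, edgeR adjusted p = 0.0483), of 13 capillary genes edgeR called 0 (1 at an unadjusted p under 0.05), and of 15 pericentral targets 0 rose and 1 fell. Of 10 Kupffer cell and macrophage genes 7 rose and 0 fell, with a summed level of 1176 to 1617 CPM against 373 to 833 CPM. Of 6 cholangiocyte genes 5 rose and 0 fell (median 2.69), of 6 hepatocyte genes 2 fell and 0 rose (median -0.83), and of 12 stellate cell genes 2 fell and 0 rose (median -0.05). The part of these cells in the values at 50d was not tested. The WT libraries are shared with the comparison at 0d.

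In the older mice, tumors and adjacent tissue of Alb-Cre:Hdac3-/- livers were compared to see how endothelial genes differ between them. Gata4, a transcription factor that maintains the sinusoidal state, was 3.55, 5.50 and 7.21 CPM in tumors and 20.6, 26.4 and 15.7 CPM in adjacent tissue. Every tumor was below every adjacent sample. Gata4 fell by 1.95 ± 0.41 on the log2 scale (edgeR adjusted p = 0.0192), as the 1 gene called of the 8 that could be tested, where 10.3% of 13187 genes tested were called (4.98% as lower). The call held in 9 of 13 alternatives, with differences from -2.20 to -1.72 and adjusted p from 0.000228 to 0.113 in edgeR and DESeq2. It was lost without tumor replicate 1 (adjusted p = 0.0642), tumor replicate 2 (0.0836), adjacent replicate 2 (0.0704) or both libraries with Y-linked transcripts (0.113), all in edgeR. These are levels of whole tissue, and the part of cells other than endothelium in the fall of Gata4 was not tested.

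Flt4 went against Gata4, at 105, 172 and 244 CPM in tumors and 63.8, 12.8 and 32.4 CPM in adjacent tissue. Every tumor was above every adjacent sample, but the log2 difference of 2.24 ± 1.00 did not pass in edgeR (adjusted p = 0.178). Lyve1 was 7.11, 11.9 and 14.9 CPM in tumors and 8.21, 0.592 and 0.426 CPM in adjacent tissue, where replicate 1 stood apart. Its difference of 1.84 ± 0.92 was not called in edgeR (adjusted p = 0.229), and without adjacent replicate 1 it was 4.43 (edgeR adjusted p = 0.0101, with a range over the 13 alternatives from 0.0101 to 0.631). Clec4g was 1.39, 2.28 and 14.8 CPM in tumors and 47.5, 11.6 and 15.2 CPM in adjacent tissue. Tumor replicate 3 overlapped with adjacent tissue and the other tumors lay far below it. The difference of -2.04 ± 0.91 (edgeR adjusted p = 0.181) was -3.76 without tumor replicate 3 (edgeR adjusted p = 0.0485, with a range over the 13 alternatives from 0.0485 to 0.495).

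Stab2, the hyaluronan scavenger receptor, was 11.8, 12.5 and 24.5 CPM in tumors and 84.4, 21.2 and 20.5 CPM in adjacent tissue. Dnase1l3 was 7.64, 9.86 and 30.3 CPM in tumors and 85.1, 20.7 and 21.1 CPM in adjacent tissue. Both genes showed the same arrangement of libraries as Clec4g, with tumor replicate 3 and adjacent replicate 1 the highest of their groups. Stab2, Dnase1l3 and Oit3 had log2 differences of -1.39 ± 0.69, -1.43 ± 0.67 and -0.60 ± 0.76, none called in edgeR (adjusted p = 0.222, 0.198 and 0.653). The median of the 8 tested log2 differences was -1.41, beside 0.02 over all genes tested, and the other 2 genes had too few counts for a test.

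Those 2 genes were the Wnt ligands. Wnt2 had 0, 0 and 2 counts in tumors and 6, 8 and 3 counts in adjacent tissue. Every tumor was below every adjacent sample. Wnt9b had 0, 0 and 3 counts in tumors and 1, 7 and 3 counts in adjacent tissue, so its groups overlapped. With no filter on low counts, the differences were -3.00 ± 1.24 for Wnt2 and -1.91 ± 1.55 for Wnt9b, neither called in edgeR (adjusted p = 0.196 and 0.518). Rspo3 had 8, 2 and 11 counts in tumors and 21, 7 and 25 counts in adjacent tissue, with overlap and a difference of -1.44 ± 0.70 (edgeR adjusted p = 0.213). Among the 10 genes, 1 was higher and 2 were lower without overlap (Flt4, Gata4 and Wnt2), beside 39.2% of the genes tested.

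**Figure D3:**
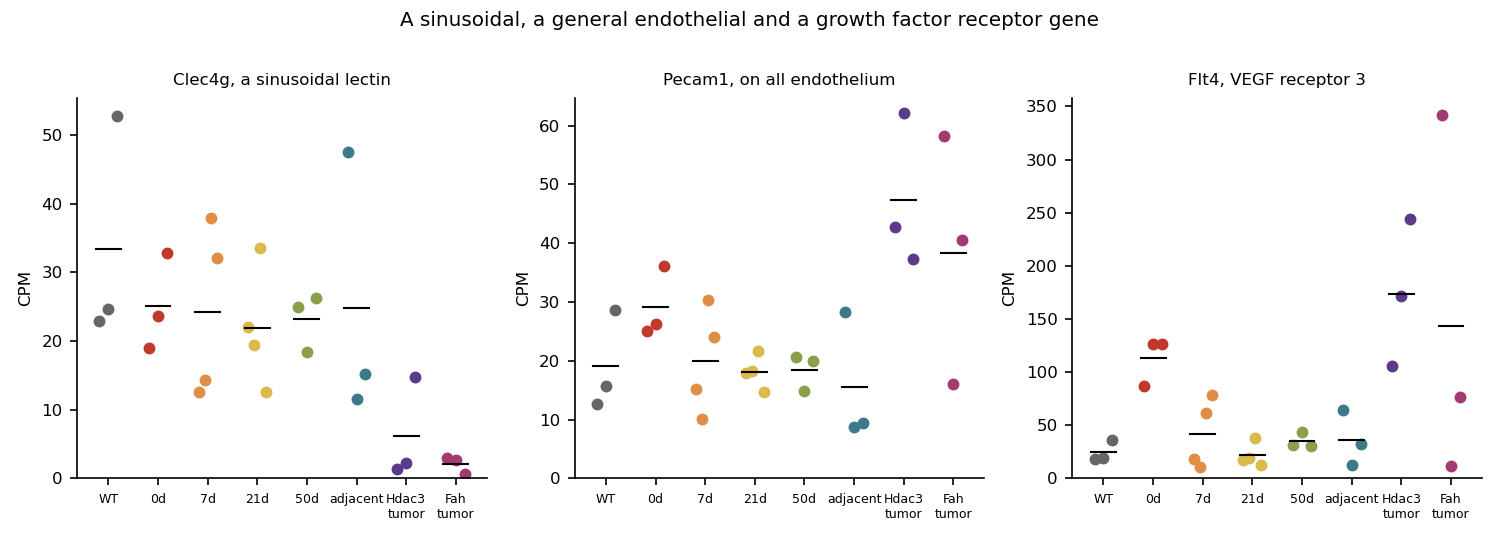
Level of Clec4g, Pecam1 and Flt4 in every library (points; CPM, linear axis from 0) by group, with group means (lines). Pecam1, which marks all endothelium, was at 37.3 to 62.1 CPM in Hdac3-/- tumors against 8.76 to 28.3 CPM in adjacent tissue. Clec4g was at 1.39, 2.28 and 14.8 CPM in these tumors against 11.6 to 47.5 CPM in adjacent tissue, so its groups overlapped. Neither difference was called.

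Of the general endothelial genes edgeR called 0 as lower and 1 as higher in the tumors. Pecam1, a junction protein of all endothelium, was 42.8, 62.1 and 37.3 CPM in tumors and 28.3, 8.76 and 9.49 CPM in adjacent tissue. All tumors were above all adjacent samples, and the log2 difference was 1.60 ± 0.57 (edgeR adjusted p = 0.102). Of 19 general endothelial genes 1 rose, the sialomucin gene Emcn (3.62 ± 0.73, edgeR adjusted p = 0.0165), 0 fell and 18 did not pass, with a median of 0.78 (7 at an unadjusted p under 0.05, in both directions). Among those that did not pass, S1pr1 was at -1.85 ± 0.58 (edgeR adjusted p = 0.0734) and the endothelin-converting enzyme Ece1 at -1.09 ± 0.44 (edgeR adjusted p = 0.144). The summed level of the 19 genes was 418 to 612 CPM in tumors and 537 to 721 CPM in adjacent tissue, with overlap. Much of this sum came from Ece1, with means of 156.5 CPM in tumors and 331.6 CPM in adjacent tissue. The sum thus does not give the direction of the other genes. Of 15 capillary and large-vessel genes 6 rose, 0 fell and 9 did not pass, with a median of 1.82. The basement membrane collagens Col4a1 and Col4a2 rose by 2.73 ± 0.48 and 2.36 ± 0.39 on the log2 scale (edgeR adjusted p = 0.011 and 0.00839), and Esm1 rose by 4.34 ± 0.81 (edgeR adjusted p = 0.0134). Of 15 other sinusoidal genes 3 rose and 0 fell: Bmp6 (3.10 ± 0.72, edgeR adjusted p = 0.0279), Thbd (2.70 ± 0.63, edgeR adjusted p = 0.0273) and Ctsl (1.64 ± 0.44, edgeR adjusted p = 0.0447). Of the 6 lymphatic genes 2 could be tested, and edgeR called 0 of them (1 at an unadjusted p under 0.05). Their summed level of 16.7 to 22.8 CPM in tumors and 34.8 to 67.0 CPM in adjacent tissue came mostly from Reln and Prox1, which stellate cells and hepatocytes also express. Mmrn1, Pdpn, Foxc2 and Ccl21a had means under 1 CPM in both groups, Ccl21a being at 0 in all tumors, so the sum is no measure of lymphatic endothelium alone. The part of lymphatic cells in the level of Flt4 was not tested.

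The Wnt pathway genes that were tested in the tumors were lower throughout where they were called. Of 15 pericentral targets 11 fell, 0 rose and 4 did not pass, with a median of -3.95. Axin2 fell by 4.41 ± 0.51 on the log2 scale (edgeR adjusted p = 0.00271), Lect2 fell by 6.32 ± 0.72 (edgeR adjusted p = 0.00271) and the transcription factor Tbx3 fell by 5.26 ± 0.56 (edgeR adjusted p = 0.00241). Of 7 tested genes for other ligands and their secretion 2 fell and 0 rose, Wnt5b (-2.54 ± 0.44, edgeR adjusted p = 0.0104) and Porcn (-1.62 ± 0.41, edgeR adjusted p = 0.037). Wnt10a did not pass the filter on low counts and was not tested. Its mean was 8.88 CPM in these tumors, 11.8 CPM in the recipient tumors and 0 CPM in adjacent tissue. The filter keeps a gene that reaches its count limit in as many libraries as the smallest group holds. Wnt10a reached it in fewer, so few libraries carried these means, and the means do not show which. The other untested ligands of this list had means under 1 CPM in these tumors and in adjacent tissue. Of 11 tested receptors 2 fell and 0 rose, Fzd8 (-2.63 ± 0.52, edgeR adjusted p = 0.0163) and Lgr5 (-3.95 ± 0.80, edgeR adjusted p = 0.0168). Of 7 tested inhibitors and feedback genes 3 fell, Axin2 among them, and 0 rose. Of 12 stellate cell genes 2 fell and 0 rose, with a summed level of 166 to 219 CPM in tumors and 406 to 515 CPM in adjacent tissue. Of 6 hepatocyte genes 1 fell and 0 rose, with a summed level of 26380 to 101700 CPM against 94030 to 122900 CPM. Of 10 Kupffer cell and macrophage genes 1 fell and 0 rose, the Kupffer cell lectin Clec4f (-3.00 ± 0.81, edgeR adjusted p = 0.0445). Marco, Cd5l, Timd4 and Vsig4 were at -5.38, -2.92, -2.75 and -2.27 without passing, while the complement genes C1qa, C1qb and C1qc were at 0.08, 0.12 and 0.03. The sum of these 10 genes was 383 to 512 CPM against 303 to 1357 CPM. No gene of these 3 lists was at 0 in a whole group, and the part of these cells in the results was not tested.

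The tumors of Fah-/- recipient mice were set against the same adjacent samples, although the animals differ in genotype and age, and these differences cannot be told apart from that between tumor and adjacent tissue. Gata4 was 2.93, 5.68 and 2.33 CPM, below every adjacent sample, and fell by 2.53 ± 0.42 on the log2 scale (edgeR adjusted p = 0.00631). It was called in 13 of 13 alternatives (adjusted p from 9.47e-07 to 0.0414 in edgeR and DESeq2). Clec4g was 3.03, 2.65 and 0.665 CPM, below every adjacent sample, and fell by 3.58 ± 0.99 (edgeR adjusted p = 0.0390). Rspo3, with 1, 3 and 5 counts or 0.105, 0.284 and 0.416 CPM, was below every adjacent sample and fell by 2.72 ± 0.76 (edgeR adjusted p = 0.0403). These 3 were lower and 0 were higher of the 8 genes tested, where 15.3% of genes tested were called (7.08% as lower). The Clec4g call held in 5 of 13 alternatives (adjusted p from 0.000621 to 0.112 in edgeR and DESeq2) and the Rspo3 call in 3 of 13 (adjusted p from 0.0129 to 0.139 in edgeR and DESeq2). Both were lost without any 1 of the 6 libraries.

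Oit3 and Dnase1l3 were also below every adjacent sample, at -2.46 ± 0.82 and -2.02 ± 0.68, and did not pass in edgeR (adjusted p = 0.0708 and 0.0731) but did in DESeq2 (adjusted p = 0.0122 and 0.0164). Over the 13 alternatives their adjusted p ran to 0.202 and 0.271. Stab2 was 31.3, 9.94 and 8.06 CPM, overlapping with adjacent tissue (-1.38 ± 0.68, edgeR adjusted p = 0.196). Flt4 was 342, 12.0 and 76.6 CPM, its widest range in any group, with 1 library below all adjacent samples and 2 above them (1.96 ± 0.99, edgeR adjusted p = 0.200). Lyve1 was 5.44, 5.11 and 2.24 CPM, above adjacent replicates 2 and 3 and below replicate 1, with a difference of 0.42 ± 0.92 (edgeR adjusted p = 0.781). Without adjacent replicate 1 that difference was 3.01 (edgeR adjusted p = 0.0217, with a range over the 13 alternatives from 0.0217 to 0.979). The median of the 8 tested log2 differences was -2.24, beside 0.04 over all genes tested.

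Wnt2 had 0 counts in all 3 recipient tumors and 17 counts over the 3 adjacent samples, so it was at least 6.52-fold lower, taking 3 counts over the group as the limit that a count of 0 allows. This limit covers counting error only. With no filter on low counts, edgeR did not call Wnt2 (adjusted p = 0.0524). Wnt9b had 0, 6 and 0 counts, overlapping with adjacent tissue, and with no filter on low counts its difference was -1.09 ± 1.44 (edgeR adjusted p = 0.664). Without overlap, 0 of the 10 genes were higher and 6 lower (Clec4g, Oit3, Dnase1l3, Gata4, Wnt2 and Rspo3), beside 33.4% of the genes tested.

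Other endothelial lists of the recipient tumors had both directions. Of 15 other sinusoidal genes 2 rose and 1 fell: Thbd rose by 4.02 ± 0.65 on the log2 scale (edgeR adjusted p = 0.00572), Bmp6 rose by 3.20 ± 0.73 (edgeR adjusted p = 0.0196), and the growth factor Bmp2 fell by 2.31 ± 0.63 (edgeR adjusted p = 0.0382). Of 19 general endothelial genes 1 rose (Emcn, 2.79 ± 0.71, edgeR adjusted p = 0.0292) and 1 fell (S1pr1, -2.56 ± 0.60, edgeR adjusted p = 0.0218). Of 15 capillary and large-vessel genes 4 rose and 0 fell, among them Col4a1 (2.79 ± 0.48, edgeR adjusted p = 0.00745) and Col4a2 (2.76 ± 0.39, edgeR adjusted p = 0.00405). Of 15 pericentral targets 12 fell and 0 rose, with a median of -4.17, and Axin2 fell by 4.05 ± 0.49 (edgeR adjusted p = 0.00231). Of 12 stellate cell genes 6 fell and 0 rose, among them Lrat (-3.83 ± 0.67, edgeR adjusted p = 0.00752), with a summed level of 94.7 to 97.8 CPM against 406 to 515 CPM. Of 6 hepatocyte genes 1 fell and 0 rose. Of 10 Kupffer cell and macrophage genes 4 fell and 0 rose, and the lectin Clec4f fell by 5.16 ± 0.90 (edgeR adjusted p = 0.00771). Timd4, Vsig4, Cd5l and Marco also had lower means than in adjacent tissue. C1qa, C1qb, C1qc, Cd68 and Adgre1 had higher means without a call. These were 155.3, 176.5, 160.3, 55.6 and 24.6 CPM against 103.1, 108.7, 105.1, 25.5 and 16.6 CPM. The sum of the 10 genes was 494.5 to 683.8 CPM against 303.3 to 1357 CPM, with overlap. The part of these cells in the results was not tested.

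Between the recipient tumors and the Hdac3-/- tumors edgeR called 0 of the 8 genes tested (1 at an unadjusted p under 0.05, 0 by DESeq2), where 0% of genes tested were called. Lyve1 was lower in every recipient tumor than in every Hdac3-/- tumor (-1.41 ± 0.90, edgeR adjusted p = 0.681), as the 1 gene without overlap, beside 12.3% of the genes tested. The difference of Gata4 was -0.57 ± 0.41 and that of Flt4 was -0.27 ± 0.95. These misses do not show that the tumors are alike, since the standard errors reached 0.95 on the log2 scale.

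**Figure D4:**
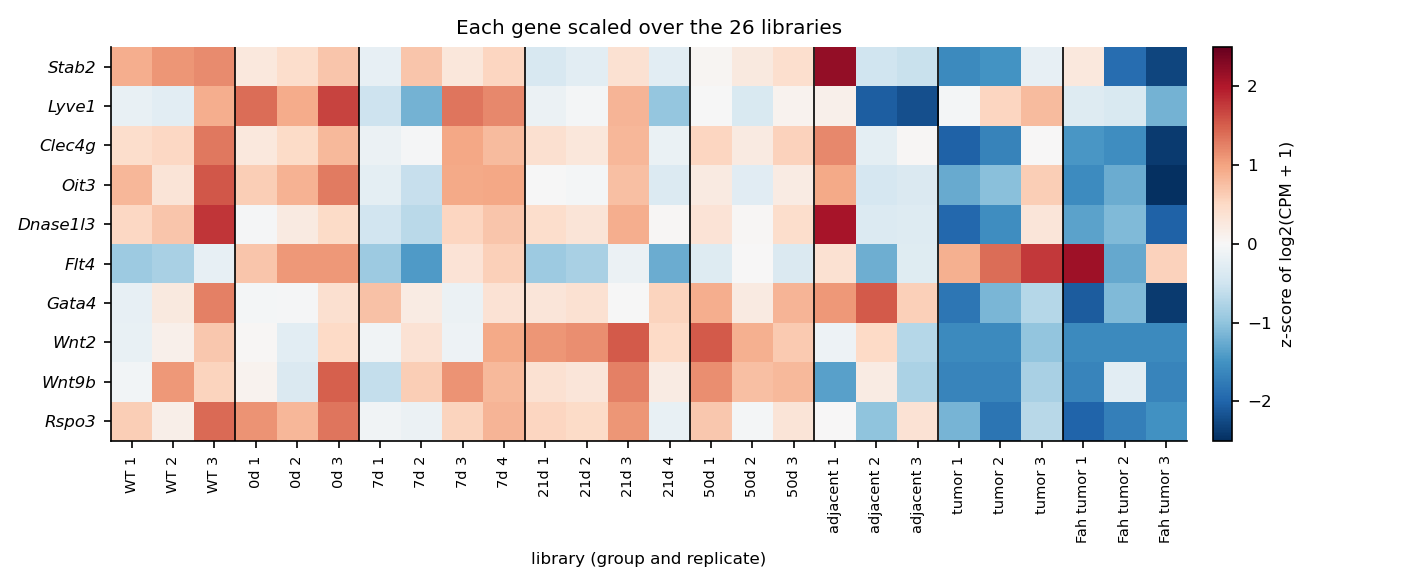
Level of each of the 10 genes in each library, as a z-score of log2(CPM + 1) over the 26 libraries (colour: red above and blue below the gene's mean). Flt4 was red in all 3 Hdac3-/- tumors, and most of the other genes were blue in tumor replicates 1 and 2. In tumor replicate 3, Lyve1, Oit3 and Dnase1l3 also lay above their means. Adjacent replicate 1 stood apart from the other adjacent samples in Stab2 and Dnase1l3.

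Across the 26 libraries, which share groups and therefore are not independent points, the median Pearson correlation of log2(CPM + 1) over all pairs of the 10 genes was 0.61, and 0.41 after each group's mean was removed. Clec4g had the highest median with the other genes (0.81, and 0.62 within groups). Flt4 had the lowest (-0.18), although within groups its median was 0.46, so its median changed sign. Single genes differed from this median: Flt4 was at 0.52 with Lyve1 over the 26 libraries, and within groups at -0.28 with Gata4 and -0.14 with Wnt9b. Gata4 had a median of 0.66, and 0.31 within groups. Within groups it was at 0.05 with Stab2, 0.16 with Lyve1, 0.33 with Clec4g, and 0.38 with both Oit3 and Dnase1l3. Among 9821 other genes with a mean of at least 5 CPM, those most like the mean z-score of the 7 sinusoidal genes were Bmp2 (0.942), Fcgr2b (0.902), Adam23 (0.867), Ehd3 (0.865), Plxnc1 (0.838) and Colec10 (0.83), and within groups these correlations were 0.885, 0.877, 0.878, 0.772, 0.727 and 0.644. Of these, Bmp2, the inhibitory Fc receptor Fcgr2b, Ehd3 and Plxnc1 stand in the list of other sinusoidal genes and Colec10 in the stellate cell list. Rspo3 was most like Plxnc1 (0.917), Bmp2 (0.904) and Colec10 (0.887). Wnt2 was most like Tshz2 (0.864), Clec4f (0.845) and Dusp22 (0.805), with 0.044, 0.107 and 0.186 within groups, and Wnt9b most like Folr2 (0.766), Clec4f (0.75) and Plxnc1 (0.748), with 0.239, 0.309 and 0.432 within groups. At the counts of Wnt2 and Wnt9b, correlations within groups carry large counting error.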

How the data were processed

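Liver RNA was extracted with Trizol and made into TruSeq libraries from 1 ug of total RNA, per the labels' protocols. HISAT, Bowtie2 and build mm10 are named, per the submitters' processing notes; they assign no role to either. The program that made the counts: not given in the sources used here. Deposited tables give an expected count per gene, which need not be whole (20.1 to 21.8% were not), and the authors' FPKM, scaled by gene length and library, per the file headers. Genes absent from a library's table count as 0. Entrez gene IDs matched 19573 of 19638 genes to symbols, RefSeq accessions 11, and 54 had no symbol.

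No replicates were alike within sampling noise (chi-square per degree of freedom 7.25 to 271). Counts were rounded and tested with edgeR 4.0.16 in R 4.3.3 (quasi-likelihood, TMM, Benjamini-Hochberg over all genes tested, threshold 0.05). The younger groups were fitted together (13617 genes after edgeR's filter on low counts) and the older groups together (13187 genes), as the 2 sets differ in age. Fold changes are fitted log2 values with their standard errors. The scripts were tested on simulated data. Alternatives were DESeq2 1.42.0, DESeq2 size factors, library totals, no filter, a replicate block, each library left out and, in older tissues, presence of Y-linked transcripts as a covariate. Leaving out libraries with Y-linked transcripts (5 CPM or more) was chosen after seeing the data.

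The 10 genes are named throughout. Of each of 15 other lists (178 distinct genes, of which 5 were not listed) up to 3 genes per comparison with the smallest adjusted p among those called are named. Further genes are named where they show what the sum, median or count of a list holds. Members and lists were chosen with earlier results of these data known. Promoter sequences are from RefSeq, GRCm38.p6, and positions count from 1. Figures were drawn with matplotlib 3.10.9.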

Additional observations from a re-analysis of the deposited data

Results flagged for a closer look

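In 20 groups of 4 libraries (each of the 10 genes at 7d and at 21d), the highest or lowest library was tested for standing apart from the rest, and chance marks about 1 in 20 such groups. It did so in 2: Stab2 at 21d, with 33.4 CPM in replicate 3 beside 22.3 to 23.8 CPM in the others, and Wnt9b at 21d, with 1.59 CPM (15 counts) in replicate 3 beside 9, 9 and 7 counts in the others. Replicate 3 also had the highest Lyve1, Clec4g, Oit3, Dnase1l3, Flt4, Wnt2 and Rspo3 of its group, and results without it stand beside the comparison of 21d with 0d. Its summed level was 624.3 CPM in stellate cell genes (210.7 to 291.9 CPM in the others) and 439.6 CPM in capillary and large-vessel genes (164.2 to 210.5 CPM). In pericentral targets it was 4721 CPM (8143 to 10890 CPM). Its Kupffer cell sum of 1017 CPM lay among the others. The part of this difference in the values at 21d was not tested.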

How the results depend on the processing

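The number of the 10 genes called in 0d against WT (1) was 3 with the replicate block and 1 in all other alternatives. In 50d against WT (1) it was 0 with library totals, 0 with no filter and 0 to 0 with 1 library left out. In 7d against 0d (0) it was 1 with DESeq2, 1 with the replicate block and 0 to 1 with 1 library left out. In 21d against 0d (1) it was 3 with DESeq2, 2 with DESeq2 size factors, 2 with library totals, 4 with the replicate block and 1 to 4 with 1 library left out. In 50d against 0d (1) it was 2 with DESeq2, 3 with the replicate block and 0 to 0 with 1 library left out. In Hdac3-/- tumors against adjacent tissue (1) it was 0 without libraries holding Y-linked transcripts and 0 to 2 with 1 library left out. In recipient tumors against adjacent tissue (3) it was 5 with DESeq2, 1 with the Y-linked covariate and 1 to 2 with 1 library left out. There the Rspo3 call was also lost with library totals, no filter and without libraries holding Y-linked transcripts (edgeR adjusted p = 0.0693, 0.0539 and 0.0673). The Clec4g call was also lost with the replicate block (edgeR adjusted p = 0.0772). Fewer samples enter the fits that leave libraries out; the cause of the other changes was not tested. The other comparisons kept 0 in every alternative run. Same-numbered replicates correlated from -0.31 to 0.53 and in no comparison all above 0.1. Without different-numbered pairs beside them, these values do not decide whether the numbers pair the samples. No called value changed sign; 99 of 1252 alternative values of single genes did so while called in neither setting, none larger than 0.86 in size.

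Over all genes, calls with DESeq2 were 59 for 21d against 7d (edgeR 0), 232 for 50d against 7d (60), 261 for 50d against 21d (60), 2392 for Hdac3-/- tumors (1354) and 41 between the tumors (0). The block gave 37 for 50d against 21d. The Y-linked covariate gave 1115 for recipient tumors (2014), and leaving out Y-linked libraries gave 545 for them and 0 for Hdac3-/- tumors. With 1 library left out, calls ran from 665 to 1535 (50d against WT, 1530), 1752 to 4134 (7d against 0d, 3626), 2484 to 5116 (21d against 0d, 4303), 1995 to 3463 (50d against 0d, 3507), 0 to 13 (21d against 7d), 21 to 78 (50d against 7d), 7 to 40 (50d against 21d), 290 to 834 (Hdac3-/- tumors), 719 to 1942 (recipient tumors) and 0 to 1 (between tumors). Scaling by library totals moved the median log2 difference of all genes to 0.30 (0d against WT), 0.11 (50d against WT), -0.13, -0.21 and -0.17 (7d, 21d and 50d against 0d), 0.20 and 0.26 (both tumor groups), and the share of calls that were higher from 49.0 to 69.7%, from 55.3 to 38.0%, from 55.6 to 35.1%, from 55.7 to 39.2%, from 51.5 to 65.2% and from 53.6 to 70.5% in these comparisons, 50d against WT apart. Depth limits Wnt2 and Wnt9b most, with at most 21 counts in a library.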
